A study of Homo sapiens with 4 samples.

Results

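The genes described here are 9 regulators of cell survival, namely BCL2, BCL2L1, MCL1, BCL2A1, BCL2L11, BAX, BAK1 and BBC3 of the BCL2 family and the kinase gene PIM1, out of 20033 protein-coding genes of GENCODE release 44. For each gene, the GATA2 peaks that overlapped its gene body or the 50 kb on either side (hereafter its window) were taken, by position alone and on genome build hg38. The 9 windows held 42 of the 31777 peaks called in asynchronous cells and 3 of the 1648 peaks called in mitotic cells. ChIP-seq, which sequences the DNA pulled down with an antibody, was done for GATA2 in K562, an established human leukaemia cell line that carries the BCR-ABL1 fusion and expresses GATA2 of its own. Asynchronous K562, a mixture of cell cycle stages that is mostly in interphase, gave 1 GATA2 library. Mitotic K562 gave 1 GATA2 library from cells arrested with nocodazole, a drug that stops spindle assembly, and sorted on MPM-2, an epitope of proteins phosphorylated in mitosis. Both populations were fixed with the same agents, disuccinimidyl glutarate followed by formaldehyde. For the mitotic cells the formaldehyde was quenched with more concentrated glycine, and these cells were antibody-stained and sorted after fixation. Both were precipitated with the same GATA2 antibody, and neither was edited or otherwise treated. The sorted cells of several rounds were pooled, were fewer than those fixed for the asynchronous library, and held under 10% of asynchronous cells by the submitters' estimate. Input libraries of both conditions were sequenced and were not analysed here.

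Each condition thus had 1 library, and the differences between conditions given below have no replicate check and no p-value. Only the position of a peak is in the lists, with no height and no read count. The depth of the libraries is therefore unknown here, and an interval missing from the mitotic list cannot be told apart from a bound site under the limit of detection. Width is the only size a peak has in these lists, with a median of 378 bp in the asynchronous list and 298 bp in the mitotic list. Expression was not measured in these libraries.

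Proteins of the BCL2 family decide at the outer mitochondrial membrane whether a cell enters apoptosis. BCL2, BCL-xL (the long product of BCL2L1), MCL1 and BCL2A1 hold the effectors BAX and BAK1 in check, and the BH3-only proteins BIM (encoded by BCL2L11) and PUMA (encoded by BBC3) relieve that restraint and help BAX and BAK1 to open the membrane. PIM1 is a serine/threonine kinase that is induced by cytokine and STAT5 signalling and phosphorylates the BH3-only protein BAD, which favours survival. In the red cell lineage, to which K562 is related, BCL-xL is a main survival protein of maturing cells. GATA2 is a zinc finger transcription factor of blood stem and progenitor cells that recognises the bases GATA. Retention of such a factor at its sites on condensed chromosomes is called mitotic bookmarking, and an asynchronous peak is called bookmarked here when it shared at least 1 base with a mitotic peak.

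In asynchronous cells GATA2 peaks lay in the windows of 8 of the 9 genes, BCL2A1 being the exception, beside 76% of all protein-coding windows. In mitotic cells 3 of the 9 windows held a peak, those of BCL2L1, MCL1 and PIM1, with 1 peak each, beside 11.7% of all protein-coding windows. Each of these 3 mitotic peaks lay wholly within an asynchronous peak, so that 3 of the 42 asynchronous peaks were bookmarked. Overlap by at least 1 base was the rule, as 1606 of all 1648 mitotic peaks shared a base with an asynchronous peak. The bookmarked share of 7.14% had an exact 95% interval of 1.5 to 19.5%, which includes the 5.04% found over all asynchronous peaks. The contribution of the asynchronous cells in the sorted population to these 3 peaks was not tested. Intervals here and below cover counting error over peaks only, and peaks of the same locus come from the same library and are no replicates of each other.

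**Figure D1:**
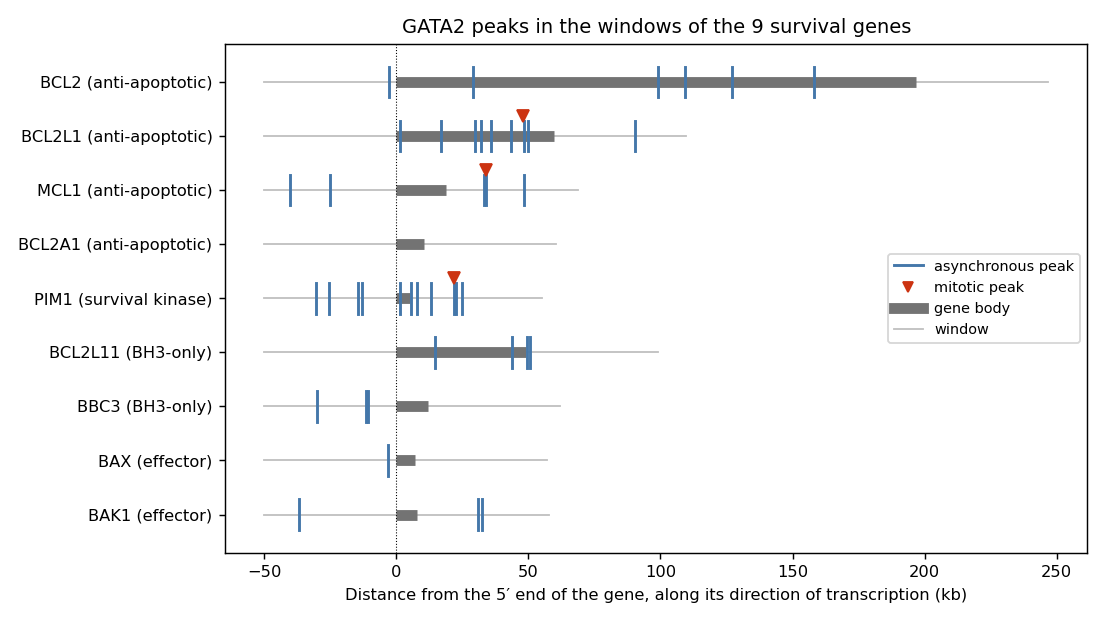
Positions of the GATA2 peaks in the window of each gene, in kb from the 5′ end of the gene along its direction of transcription (thick bar, gene body; thin line, window; blue ticks, 42 asynchronous peaks; red triangles, 3 mitotic peaks). The mitotic peaks lie in the body of BCL2L1 and beyond the 3′ ends of MCL1 and PIM1, and no peak lies in the window of BCL2A1.

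Grouped by role, the 4 anti-apoptotic genes held 20 asynchronous peaks, or 29.2 per Mb of window, and 2 of these were bookmarked (10%, exact interval 1.23 to 31.7%). The 2 BH3-only genes held 7 asynchronous peaks and the 2 effector genes held 4, together 23.1 per Mb. None of these 11 peaks near pro-apoptotic genes was bookmarked, a count of 0 that allows a share of up to 27.3% when taken as 3 peaks of the 11 and up to 28.5% by the exact interval. These limits do not set them apart from the anti-apoptotic genes. PIM1 alone held 11 asynchronous peaks, or 104 per Mb, of which 1 was bookmarked. Pooled over all 9 windows the density was 33.2 per Mb, and without PIM1 it was 26.7 per Mb. Single protein-coding windows had a median of 14.1 per Mb and an upper quartile of 27.7 per Mb. PIM1, BCL2L1 (56.4 per Mb), MCL1 (42.1) and BAK1 (27.8) lay above that quartile. BCL2L11 and BBC3 (26.8 each), BCL2 (20.2), BAX (9.35) and BCL2A1 (0) lay below it.

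The 3 mitotic sequences are shown because they are the only stretches of these loci called in both lists. Each is the plus strand of hg38, from 5′ to 3′, with GATA strings in capitals. A GATA string is AGATAA on either strand, where the first base may also be T and the last may also be G. For the wider BCL2L1 and MCL1 peaks the 300 bp with most GATA strings are given (chr20:31675759-31676058 and chr1:150545632-150545931), and the PIM1 peak is given whole (chr6:37191914-37192083).
BCL2L1 mitotic peak: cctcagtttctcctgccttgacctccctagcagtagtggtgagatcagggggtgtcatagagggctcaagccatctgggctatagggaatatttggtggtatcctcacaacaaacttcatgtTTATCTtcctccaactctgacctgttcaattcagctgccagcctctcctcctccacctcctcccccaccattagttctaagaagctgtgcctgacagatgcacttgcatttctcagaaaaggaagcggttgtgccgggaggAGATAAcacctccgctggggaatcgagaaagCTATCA
MCL1 mitotic peak: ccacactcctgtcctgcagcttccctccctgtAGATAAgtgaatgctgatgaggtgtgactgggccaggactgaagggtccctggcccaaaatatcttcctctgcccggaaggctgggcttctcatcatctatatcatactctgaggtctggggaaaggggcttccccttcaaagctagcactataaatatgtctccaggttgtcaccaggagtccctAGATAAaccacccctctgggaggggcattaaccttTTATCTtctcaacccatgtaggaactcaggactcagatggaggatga
PIM1 mitotic peak: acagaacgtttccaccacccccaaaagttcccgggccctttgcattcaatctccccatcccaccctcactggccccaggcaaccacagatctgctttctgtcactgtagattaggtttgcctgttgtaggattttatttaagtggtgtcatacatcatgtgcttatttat
The BCL2L1 and MCL1 sequences hold 3 GATA strings each, and the PIM1 sequence holds none.

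BCL2L1 (ENSG00000171552, chr20:31664452-31723989, minus strand) had 9 asynchronous peaks and 1 mitotic peak. Its asynchronous peaks were between 290 and 1119 bp wide, with a median of 484 bp, and its count was above that of 94.8% of protein-coding windows. Of the 9 peaks, 7 lay in intron 2 of the canonical transcript, 1 lay at a transcription start site (TSS) of the gene in intron 1 (chr20:31722185-31722739), and the last lay beyond the 3′ end, 4041 bp from the TSS of COX4I2. Most of the occupancy called at BCL2L1 was thus inside the gene and away from its TSS.

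The mitotic peak of BCL2L1 (chr20:31675701-31676063) was 363 bp wide and lay in intron 2, inside an asynchronous peak of 1119 bp (chr20:31675214-31676332). That asynchronous peak was wider than 99.3% of its list, and the mitotic interval covered 32.4% of it. The asynchronous peak held 6 GATA strings, of which 3 were inside the mitotic interval and 3 in the flanks that the mitotic list did not keep. An AGATAA of the mitotic interval lay 1.5 bp from its midpoint (chr20:31675881-31675886), and the others were AGATAA (chr20:31676022-31676027) and TGATAG (chr20:31676053-31676058). Between the first and the second of these stood the E-box CAGCTG (chr20:31675912-31675917), the string read by basic helix-loop-helix factors. This E-box was in 23.5% of all mitotic peaks. The same stretch held 2 STAT-type strings, TTC and GAA with 3 bases between, a type found in 15.7% of all mitotic peaks. They were TTCTAAGAA (chr20:31675955-31675963) and TTCTCAGAA (chr20:31675990-31675998). The peak was 43354 bp from the nearest BCL2L1 TSS and 37768 bp from that of COX4I2, a cytochrome c oxidase subunit gene, so by nearest TSS it belongs to COX4I2 although it lies in the body of BCL2L1.

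MCL1 (ENSG00000143384, chr1:150560895-150579738, minus strand), which encodes a short-lived anti-apoptotic protein, had 5 asynchronous peaks of 210 to 687 bp and 1 mitotic peak. None of them lay in the gene, and the closest was 24949 bp from an MCL1 TSS. The 3 peaks on the 3′ side were nearest to the TSS of ADAMTSL4 and the 2 on the 5′ side lay in the body of ENSA. GATA2 peaks near MCL1 thus lay in its flanks and not in the gene itself.

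The mitotic peak of MCL1 (chr1:150545614-150545950) was 337 bp wide and lay 14945 bp beyond the 3′ end of the gene and 28602 bp from its nearest TSS. The TSS of ADAMTSL4, an extracellular matrix gene, was closer at 3419 bp. The asynchronous peak around it (chr1:150545407-150546093) was 687 bp wide, wider than 90.3% of its list, and 49.1% of its bases were shared. Of its 4 GATA strings, 3 were inside the mitotic interval, and all 3 read AGATAA. A neighbouring asynchronous peak of 251 bp with 1 GATA string (chr1:150546570-150546820) started 476 bp further on and had no mitotic counterpart.

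PIM1 (ENSG00000137193, chr6:37170152-37175428, plus strand) had the most asynchronous peaks of the 9 genes. Its 11 peaks in a window of 105 kb gave a density above that of 99.9% of protein-coding windows. PIM1 held the nearest protein-coding TSS of all 11 peaks. Of these, 4 lay upstream, between 12804 and 30373 bp from a PIM1 TSS, 1 lay on coding exon 4, and 6 lay beyond the 3′ end, between 3097 and 22227 bp from the nearest TSS. Gaps between neighbouring peaks had a median of 4374.5 bp and were as short as 492 bp. Their widths, from 214 to 657 bp with a median of 376 bp, were close to the median of the whole list.

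The mitotic peak of PIM1 (chr6:37191914-37192083) differed from the other 2 in width and in sequence. It was 170 bp wide, narrower than all but 6.37% of mitotic peaks, and lay 16486 bp beyond the 3′ end of the gene. The asynchronous peak around it (chr6:37191800-37192171) was 372 bp wide, wider than 48.6% of its list, and 45.7% of its bases were shared. Neither peak held a GATA string. The asynchronous peak held the bare bases GATA once, at the edge of the mitotic interval, and the mitotic interval did not hold them whole on either strand. The nearest GATA string outside the mitotic interval was TGATAG at chr6:37191428-37191433, 481 bp away. The mitotic interval held the RUNX string AACCACA (chr6:37191994-37192000), 1.5 bp from its midpoint. This string was in 13.2% of all mitotic peaks. Over the whole lists, 72 of 1648 mitotic peaks (4.37%) and 2232 of 31777 asynchronous peaks (7.02%) lacked a GATA string, and 29 of those 2232 (1.30%) were bookmarked.

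**Figure D2:**
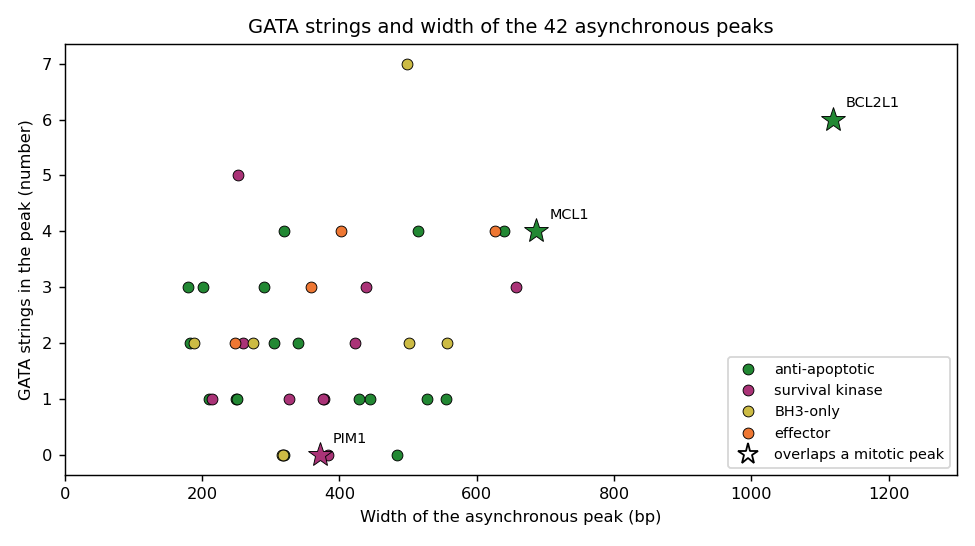
Number of GATA strings in each of the 42 asynchronous peaks (vertical axis) against the width of the peak in bp (horizontal axis), coloured by the role of the gene, with stars for the 3 peaks that overlap a mitotic peak. The bookmarked peaks of BCL2L1 and MCL1 are the widest of the 42 and hold 6 and 4 GATA strings, and that of PIM1 is 372 bp wide and holds none.

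The other asynchronous peaks had no mitotic counterpart, and 4 of them are shown because they hold several GATA strings and were not called in mitosis. They are given as above, on the plus strand of hg38. The BAX and BCL2L11 sequences are the 300 bp with most GATA strings (chr19:48951700-48951999 and chr2:111133937-111134236), and those of PIM1 and BCL2 are whole peaks (chr6:37139528-37139779 and chr18:63290850-63291029).
BAX asynchronous peak: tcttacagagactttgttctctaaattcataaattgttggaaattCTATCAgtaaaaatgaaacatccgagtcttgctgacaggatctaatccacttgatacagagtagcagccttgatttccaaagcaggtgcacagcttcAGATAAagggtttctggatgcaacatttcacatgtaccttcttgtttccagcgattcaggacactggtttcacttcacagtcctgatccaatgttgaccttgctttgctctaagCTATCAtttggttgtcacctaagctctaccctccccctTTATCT
BCL2L11 asynchronous peak: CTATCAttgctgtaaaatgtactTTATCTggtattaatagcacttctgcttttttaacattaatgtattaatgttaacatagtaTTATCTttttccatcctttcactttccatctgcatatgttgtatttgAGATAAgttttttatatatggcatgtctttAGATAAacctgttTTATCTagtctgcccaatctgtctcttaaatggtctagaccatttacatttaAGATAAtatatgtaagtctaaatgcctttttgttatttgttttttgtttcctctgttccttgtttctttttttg
PIM1 asynchronous peak: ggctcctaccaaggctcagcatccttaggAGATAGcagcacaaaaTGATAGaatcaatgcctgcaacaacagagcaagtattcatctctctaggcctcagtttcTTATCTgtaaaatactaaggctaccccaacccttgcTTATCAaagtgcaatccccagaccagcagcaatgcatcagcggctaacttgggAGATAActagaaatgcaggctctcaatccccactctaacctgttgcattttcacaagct
BCL2 asynchronous peak: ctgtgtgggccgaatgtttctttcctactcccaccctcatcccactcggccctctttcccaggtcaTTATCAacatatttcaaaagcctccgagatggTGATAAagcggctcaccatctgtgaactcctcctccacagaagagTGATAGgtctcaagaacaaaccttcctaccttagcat
These hold 4, 7, 5 and 3 GATA strings. They were picked for their strings, so they do not compare the 2 lists. Over the whole lists, 74.1% of mitotic peaks held 2 or more GATA strings, beside 66.4% of asynchronous peaks. The mitotic peaks held 7.5 strings per kb, beside 6.0 in the asynchronous peaks. Per peak, the means were 2.42 in the mitotic list and 2.51 in the asynchronous list.

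BCL2 (ENSG00000171791, chr18:63123346-63320128, minus strand), the founding member of the family, had 6 asynchronous peaks and no mitotic peak in its window, the nearest mitotic peak being 6026967 bp from the gene. Of the 6 peaks, 5 lay in intron 2 and the other was upstream, 2798 bp from the nearest TSS. All 6 were narrower than the median of the asynchronous list, at 180 to 340 bp. They held 11 GATA strings in 5 of the 6 peaks. The narrowest (chr18:63290850-63291029), shown above, had 3 strings within 83 bp. Another intron 2 peak, of 249 bp (chr18:63161841-63162089), overlapped an alternative BCL2 TSS. A further peak, of 202 bp (chr18:63210605-63210806), held the composite string CTGGATGAAAAGATAA, that is CTG and GATAA with 8 bases between, the arrangement read by TAL1 and GATA factors together. Its length of 196783 bp puts the gene's density at 20.2 per Mb, above 64.7% of protein-coding windows, while its count was above 85.4% of them.

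BCL2A1 (ENSG00000140379, chr15:79960892-79971196, minus strand), an anti-apoptotic gene used mostly in myeloid and lymphoid cells, had no peak of either list in its window. The nearest asynchronous peak was 74455 bp and the nearest mitotic peak 2296097 bp from the gene. Among all protein-coding genes, 24.0% had no asynchronous peak in the window.

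BCL2L11 (ENSG00000153094, chr2:111119378-111168444, plus strand) had 4 asynchronous peaks, in intron 2, in intron 3 and at 2 places just beyond the 3′ end, 188 to 556 bp wide. The long noncoding gene MIR4435-2HG spans all 4. The intron 2 peak (chr2:111133923-111134421), 10177 bp from the nearest BCL2L11 TSS, was 499 bp wide and held 7 GATA strings within 232 bp, the most of the 42 peaks. It was also the peak with the lowest GC content, 29.5%. The nearest mitotic peak was 474542 bp away from the gene.

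BBC3 (ENSG00000105327, chr19:47220822-47232766, minus strand), a target of p53, had 3 asynchronous peaks, all upstream. The closest was 10689 bp from a BBC3 TSS, and the farthest (chr19:47262448-47262949) lay in CCDC9. The middle peak (chr19:47244081-47244398) had the highest GC content of the 42 peaks, 69.5%, and no GATA string, though it held the composite string, which asks only for GATAA after CTG and the 8 free bases. The nearest mitotic peak was 428461 bp from the gene.

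BAX (ENSG00000087088, chr19:48954815-48961798, plus strand) had 1 asynchronous peak (chr19:48951619-48952021), 403 bp wide and 2794 bp upstream of the nearest BAX TSS. It held 4 GATA strings within 255 bp. BAX was the only pro-apoptotic gene of the 4 with a peak within 3 kb of a TSS of its own. That peak also falls in the window of FTL, the ferritin light chain gene, which holds no other peak.

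BAK1 (ENSG00000030110, chr6:33572547-33580293, minus strand) had 3 asynchronous peaks, none closer than 30686 bp to a BAK1 TSS. The 2 on the 3′ side lay in GGNBP1 (chr6:33547514-33547872 and chr6:33549343-33549590), and the second of them held the composite string. The remaining peak (chr6:33616848-33617474) was 627 bp wide with 4 GATA strings and lay 2891 bp from the TSS of ITPR3, an inositol trisphosphate receptor gene. The nearest mitotic peaks to BAK1 and BAX lay outside their windows, 60034 and 75832 bp from the genes.

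Windows with more asynchronous peaks also held a mitotic peak more often, over all genes and among the 9. The 2 counts are not independent, because 1606 of the 1648 mitotic peaks overlapped an asynchronous peak. Of the protein-coding windows with 1 asynchronous peak, 2.73% held a mitotic peak, and of those with 5 or more, 31.9% did. The 4 survival genes with 5 or more were BCL2, BCL2L1, MCL1 and PIM1, and 3 of them held a mitotic peak. BCL2, with 6 asynchronous peaks, was the exception, and 26.1% of windows with that count held a mitotic peak. At 5 asynchronous peaks, the count of MCL1, 22.7% of windows held a mitotic peak. At 9, the count of BCL2L1, this share was 38.7%, and at 11, the count of PIM1, it was 44.4%. The median over all protein-coding windows, of which 11.7% held a mitotic peak, was 2 asynchronous peaks.

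Peak width also moved with bookmarking. A wider interval meets the rule of at least 1 shared base more easily, and how much of the trend follows from the rule was not tested. Across the 42 asynchronous peaks the middle width was 365.5 bp and the quartiles were 262.75 and 495.25 bp, beside a median of 378 bp for the whole list. When the whole list was ordered by width and cut into 10 deciles, 24.6% of the peaks between 681 and 2590 bp were bookmarked, and the only peaks of the survival genes in that decile were the bookmarked peaks of BCL2L1 and MCL1. In the next decile, from 558 to 680 bp, 12.1% of all peaks were bookmarked, and the 3 peaks of MCL1, PIM1 and BAK1 that fell in it were not. Between 333 and 377 bp, where the bookmarked PIM1 peak lies, 28 of 3162 peaks (0.886%) were bookmarked. Of the 5 peaks of the survival genes in that decile, the PIM1 peak was the only bookmarked peak. The BCL2 peaks, at 180 to 340 bp, fell in the 5 narrowest deciles, in each of which under 1% of all peaks were bookmarked.

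In sequence the 42 asynchronous peaks were near the whole list. A GATA string was found in 36 of them (85.7%, exact interval 71.5 to 94.6%), beside 93.0% of all asynchronous peaks. The 6 without were the upstream peak of BCL2, an intron 2 peak of BCL2L1, the exon 4 peak and the bookmarked peak of PIM1, a downstream peak of BCL2L11 and the middle peak of BBC3. The peaks held 2.17 GATA strings on average, or 5.48 per kb, beside 2.51 and 6.0 over the whole list. BCL2L1 had the most, with 21 strings in 8 of its 9 peaks, followed by PIM1 with 19 in 9 of 11 and MCL1 with 12 in 5 of 5. K562 also expresses GATA1, which reads the same bases, and a string is only a match of letters.

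Strings of other blood factors were searched on both strands as well. The E-box CAGCTG was in 23.8% of the 42 peaks beside 24.1% of all asynchronous peaks, the ETS string AGGAAGT in 11.9% beside 14.9%, and the STAT-type string in 11.9% beside 16.3%. The RUNX string AACCACA and the AP-1 strings TGACTCA and TGAGTCA were each in 7.14% of the 42 peaks, beside 13.6% and 13.0% of the list. The composite of CTG and GATAA with 8 bases between, which overlaps a GATA string wherever the base before GATAA is A or T and is otherwise separate, was in 7.14% beside 8.55%. Each value over the whole list lay within the exact interval of the 42 peaks, so none of these strings was detectably more or less frequent at this number of peaks. Where strings did gather, they did so in single peaks, as with 3 ETS strings in the 320 bp intron 2 peak of BCL2L1 (chr20:31673958-31674277) and 2 RUNX strings in the intron 3 peak of BCL2L11 (chr2:111162777-111163332).

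Most of the 42 peaks lay away from the start of the gene. Only 5 of them (11.9%, exact interval 3.98 to 25.6%) were within 3 kb of a TSS of the survival gene itself, namely 2 at BCL2 and 1 each at BCL2L1, PIM1 and BAX. Counting the TSS of any protein-coding gene, 7 (16.7%, 6.97 to 31.4%) were within 3 kb, beside 21.4% of all asynchronous peaks. Introns of the survival genes held 15 peaks, the upstream flanks 12, the downstream flanks 14 and an exon 1. The nearest protein-coding TSS was that of the survival gene for 32 of the 42 peaks, and the other 10 were nearest to COX4I2, ADAMTSL4, ENSA, CCDC9 or ITPR3. RefSeq promoter windows on GRCh38.p14, from 250 bases before to 50 after the start, were available for 8 of the 9 genes (9 windows, MCL1 not among them). None of the 9 held a GATA string, where 8769 of 35116 RefSeq promoter windows held at least 1. None was overlapped by a peak of either list. The share of all RefSeq promoter windows overlapped by a peak is not given here, so this count cannot be called unusual.

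Other genes of the BCL2 family and the other PIM kinases were looked at in the same windows. Of 17 further genes, 16 had an asynchronous peak (61 peaks, median 3 per gene) and 4 had a mitotic peak, beside 76% and 11.7% of all protein-coding windows. Of their asynchronous peaks 6.56% were bookmarked, beside 5.04% of the whole list. The mitotic peak of BAD, whose product PIM1 phosphorylates, lay in the gene body (chr11:64270168-64270671), which overlaps GPR137 there. That of BCL2L14 (chr12:12190447-12190623) lay where the gene overlaps LRP6, and that of BCL2L10 (chr15:52137656-52138110) lay 24881 bp away in GNB5. The last was in BNIP3L, a mitophagy receptor gene used in red cell maturation. PIM2, another kinase gene of the PIM family, also had 11 asynchronous peaks, above 99.9% of windows by density, and no mitotic peak, and PIM3 had no peak. Among the further BH3-only genes, BAD had 3 asynchronous peaks and the mitotic peak given above, while PMAIP1 (which encodes NOXA) had 6 asynchronous peaks, BMF had 5, BID and BIK had 3 each and HRK had 2, all without a mitotic peak.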

How the data were processed

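GATA2 ChIP-seq peak lists of asynchronous and mitotic K562 (1 library each) were used. The authors deposited peak positions, in 3 columns without scores, made as follows per the labels and methods. Reads were aligned to hg38 with BWA 0.7.12, uniquely mapped reads of mapping quality 25 or more were kept and extended to 200 bp, peaks were called with MACS2 2.1.0 and Genrich 0.6.1, and blacklisted regions were removed. How the callers, thresholds and inputs were combined is not given in the sources used here. Here peaks were intersected with GENCODE 44 gene windows (at least 1 shared base), described by width, position and consensus strings on both strands of hg38, and set beside all peaks and all protein-coding windows. Percentiles are the share of windows or peaks with a lower value. Shares have exact (Clopper-Pearson) 95% intervals. The 9 genes and the list of further BCL2 family and PIM genes were chosen with earlier results of these data known, and all 9 genes were named whatever their values. A list of apoptosis genes downstream of the mitochondrion is not reported here. With 1 library per condition no test was run. Alternatives changed the window, the gene assignment, the overlap, the peaks kept and the strings. Steps were tested on simulated data. The scripts ran under Python 3.11.15 with pysam 0.24.0 for sequences, scipy 1.17.1 for intervals, pandas 2.3.3 and numpy 2.4.6 for tables and matplotlib 3.10.9 for figures.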

Additional observations from a re-analysis of the deposited data

How the results depend on the processing

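Of 48 values recomputed under the alternatives, 31 stayed within 1.5 times the count or within the counting interval of the share. With flanks of 10 kb, 23 asynchronous peaks and 1 mitotic peak (at BCL2L1, bookmarked) were left, 5 genes kept an asynchronous peak and 1 a mitotic peak. With flanks of 100 kb there were 79 asynchronous and 7 mitotic peaks, 7 asynchronous peaks were bookmarked, and 5 genes, BAX and BAK1 now included, had a mitotic peak. The share of all protein-coding windows with a mitotic peak is given here for flanks of 50 kb only. The counts of genes under other settings therefore have no share beside them. When only peaks whose nearest protein-coding TSS was that of the survival gene were kept, 1 mitotic peak, 1 bookmarked peak and 1 gene with a mitotic peak (PIM1) were left. When each peak had to share at least 50% of its length, 0 peaks (0%) and so 0 genes were left with a bookmarked peak. The mitotic intervals cover less than that of the wider asynchronous peaks. This rule leaves the mitotic peaks in the windows of BCL2L1, MCL1 and PIM1 as they are. The share of the whole asynchronous list under this rule is not given here, so the 0 cannot be read as particular to these genes. A minimum width equal to the median of the whole list left 18 asynchronous peaks. With AGATAA alone, 66.7% of the asynchronous peaks held a GATA string. Without PIM1, 6.45% of asynchronous peaks were bookmarked. Measured from the gene body, the farthest asynchronous peak within the 50 kb limit was at 39814 bp (MCL1) and the nearest beyond it at 50376 bp (PIM1), and the corresponding mitotic peaks were at 16486 bp (PIM1) and 60034 bp (BAK1). No paired analysis was possible because each condition has 1 library. Depth, which sets how many peaks are called, is not known from the lists.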

Other observations

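Windows of neighbouring genes shared many of the peaks given for the survival genes. The window of COX4I2 held 7 of the 9 asynchronous peaks of BCL2L1 and its mitotic peak, and that of TPX2, a spindle assembly gene, held 4 of the asynchronous peaks and had a mitotic peak of its own that BCL2L1 did not share. The mitotic peak near MCL1 was also in the windows of ADAMTSL4 and ECM1, and that near PIM1 in the window of TMEM217, which held 14 asynchronous and 3 mitotic peaks.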
